A study of Mus musculus with 8 samples.

Results

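Open chromatin in the developing mouse lens was described at the genes of 7 homeobox transcription factors of the TALE class, Meis1, Meis2, Meis3, Pbx2, Pbx3, Pknox1 and Pknox2, out of 21774 protein-coding genes. The window of each gene was its RefSeq gene body on GRCm38 (the mm10 build that the deposited peaks use) with 50 kb on each side, and every peak that overlapped a window was taken, whatever its strength. The 7 windows span 1563 kb and hold 720 of the 345333 peaks in the 4 lists. Peaks of the 4 lists that lay within 10 bp of each other were joined, which gave 369 merged regions in these windows of 185271 in the genome.

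The lists come from ATAC-seq, in which a transposase cuts and tags DNA wherever chromatin is open. Lens epithelium and lens fibers were microdissected from CD1 mice at embryonic stage E14.5 and in newborns at postnatal stage P0.5. The 4 groups have 2 libraries each, and every library was made from several pooled lenses. The labels name no allele and no agent in any group, and no control library. The authors called peaks on the pooled libraries of a group, so each group has 1 list, without values per library, and no difference between groups could be tested against replicates.

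TALE homeodomain proteins carry an extra loop of amino acids between the first helices of the homeodomain. Pbx proteins bind DNA together with Meis or Pknox (also called Prep) proteins and with Hox proteins, and Meis and Pknox proteins compete for the same Pbx partners. Meis1 and Meis2 are known in the early eye, where Meis and Pknox proteins bind an enhancer of Pax6 in the lens ectoderm. The single-celled layer of epithelium at the front of the lens divides and feeds the fiber cells, which elongate, fill with crystallins and later lose their nuclei.

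The sequences given first are the regions outside promoters on which the account of the loci turns. They are 200 bp of the GRCm38 plus strand around the summit, in lower case, and capitals mark a match to TGACAG, the core that Meis and Pknox proteins recognise (CTGTCA where the match is on the minus strand). The first set shows the strongest region outside promoters at Meis1, Meis2 and Pknox2, each called in all 4 lists. The Meis1 region lies 8.47 kb upstream of the start site, the Meis2 region in an intron 44.5 kb downstream and the Pknox2 region in an intron 231 kb downstream.
Meis1 upstream region, chr11:19027335-19027534: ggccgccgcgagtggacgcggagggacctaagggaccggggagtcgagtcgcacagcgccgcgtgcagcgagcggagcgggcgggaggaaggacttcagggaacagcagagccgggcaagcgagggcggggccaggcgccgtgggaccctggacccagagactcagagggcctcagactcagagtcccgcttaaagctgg
Meis2 intron region, chr2:116020027-116020226: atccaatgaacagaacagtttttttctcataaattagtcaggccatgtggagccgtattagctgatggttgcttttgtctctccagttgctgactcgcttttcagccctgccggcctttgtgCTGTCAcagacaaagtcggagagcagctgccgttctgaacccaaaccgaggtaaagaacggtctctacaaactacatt
Pknox2 intron region in all lists, chr9:36916474-36916673: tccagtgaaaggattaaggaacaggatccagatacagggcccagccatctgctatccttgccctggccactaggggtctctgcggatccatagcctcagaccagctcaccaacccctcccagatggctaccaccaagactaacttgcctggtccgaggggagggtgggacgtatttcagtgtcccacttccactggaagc

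The second set shows regions called in both tissues at E14.5 and in neither at P0.5. They lie in an intron 63.8 kb into Pbx3 and in an intron 228 kb into Pknox2, and each is the region with the smallest p value of its locus among those limited to 1 tissue or 1 stage.
Pbx3 E14.5 region, chr2:34308097-34308296: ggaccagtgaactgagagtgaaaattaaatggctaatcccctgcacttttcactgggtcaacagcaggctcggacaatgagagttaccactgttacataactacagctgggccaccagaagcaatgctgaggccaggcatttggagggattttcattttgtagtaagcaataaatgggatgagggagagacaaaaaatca
Pknox2 E14.5 region, chr9:36919521-36919720: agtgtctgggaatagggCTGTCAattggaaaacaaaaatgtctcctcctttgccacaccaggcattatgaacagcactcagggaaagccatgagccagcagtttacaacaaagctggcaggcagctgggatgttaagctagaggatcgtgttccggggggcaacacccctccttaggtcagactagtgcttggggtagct

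The third set shows regions called in E14.5 epithelium alone (in an intron 181 kb into Pknox2) and in E14.5 fibers alone (in introns 11.8 kb into Pbx3 and 35.7 kb into Pknox1).
Pknox2 epithelial region, chr9:36965855-36966054: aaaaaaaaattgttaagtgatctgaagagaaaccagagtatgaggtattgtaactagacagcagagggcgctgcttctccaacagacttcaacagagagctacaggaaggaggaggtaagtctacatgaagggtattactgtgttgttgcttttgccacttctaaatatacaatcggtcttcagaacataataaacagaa
Pbx3 fiber region, chr2:34360176-34360375: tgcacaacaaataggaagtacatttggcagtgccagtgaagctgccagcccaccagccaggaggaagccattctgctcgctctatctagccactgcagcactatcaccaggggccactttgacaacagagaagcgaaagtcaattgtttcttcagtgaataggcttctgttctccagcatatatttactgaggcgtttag
Pknox1 fiber region, chr17:31600398-31600597: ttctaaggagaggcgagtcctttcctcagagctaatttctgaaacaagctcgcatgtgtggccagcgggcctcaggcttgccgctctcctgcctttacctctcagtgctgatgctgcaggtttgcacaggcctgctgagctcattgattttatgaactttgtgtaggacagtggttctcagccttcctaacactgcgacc

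Most regions lay inside the genes themselves, whose bodies also fill much of the longer windows. Of the 369 regions, 17 were at the member's own promoter (within 2 kb of a curated start site), 197 elsewhere in its own gene body, 32 at the promoter of another gene, 54 in the body of another gene and 69 between genes. By their summits, 196 regions were in an intron, 11 in an exon and 162 outside the member's gene. The windows of Pbx2 and Meis3, which are short genes among many neighbours, held mainly regions of other genes: 20 of the 46 regions at Pbx2 were at another gene's promoter and 14 in another gene's body, and 20 of the 32 at Meis3 were in another gene's body. At Pknox2, 81 of 96 regions were in the member's own body outside the promoter, and at Pbx3 29 of 46. The gene body makes up 256 of the 356 kb of the window at Pknox2 and 201 of 301 kb at Pbx3. It makes up 5.14 of 105 kb at Pbx2 and 12.5 of 112 kb at Meis3, and the counts were not set against these lengths.

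Summed over the 7 loci, the windows were denser in peaks than the genome in each list, while that of Pbx3 held 1.66 peaks per 100 kb in newborn epithelium beside 2.15 in the genome. In all the windows together, embryonic epithelium held 14.7 peaks per 100 kb of window beside 3.67 per 100 kb of genome, embryonic fibers 15.9 beside 4.54, newborn epithelium 8.13 beside 2.15 and newborn fibers 7.29 beside 2.31. Among the windows of all protein-coding genes, Pbx2 stood above 91.7 to 98.4% of genes in the 4 lists and Meis1 above 85.7%, 85.1%, 87.4% and 64.9% in embryonic epithelium, embryonic fibers, newborn epithelium and newborn fibers. The place of Pbx3 ran from 30.4% in newborn epithelium to 71.5% in embryonic fibers, and embryonic fibers were the only list in which its window held more peaks than that of the median gene.

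The lists differ in length and in strength, which touches each comparison below. They hold 100003 peaks in embryonic epithelium, 123743 in embryonic fibers, 58592 in newborn epithelium and 62995 in newborn fibers. They give no read counts, so the depth behind a peak is not known from them. The q value was under 0.001 for 87.9%, 80.5%, 86.7% and 48.8% of the peaks in that order, so the P0.5 fiber list holds many weak calls. Fold enrichment was used only as a rank within its own list, written as the percent of the list that is at least as strong: 1% is near the top of a list and 90% near its end.

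Promoters of fiber genes ranked higher in fibers, as with Cryaa, a crystallin of the lens, at 3.73% and 18.0% in E14.5 and P0.5 epithelium beside 0.229% and 3.82% in fibers. The other fiber markers Crybb1, Mip, Lim2 and Bfsp1 had the same order. Promoters of the epithelial markers had a peak in every list but no such order, with Foxe3 ranked higher in epithelium at both stages, Pax6 higher in fibers at E14.5 (0.479% beside 3.73%), and Pax6 at P0.5 and Cdh1 at E14.5 with no order that held by both the rank in the list and the place among the promoters of all genes. Of markers of other cells, the promoters of Krt5, Krt12 (surface ectoderm) and Ptprc (white blood cells) had no peak in any list, Hbb-bs (red blood cells) had one in E14.5 epithelium alone (55.5%) and Pecam1 (blood vessel) one in E14.5 fibers alone (80.5%), while Cdh5 and Kdr (blood vessel) and Foxc1 (periocular mesenchyme) had one in all 4, and Rax (retina) had one in 3 lists, at 38.1% and 27.2% in E14.5 epithelium and fibers and 96.5% in P0.5 epithelium. Meis and Pbx genes are active in several of those tissues too, and the part of such cells in the peaks at these loci was not tested. In dissected tissue, a region open in fewer cells and a region less open in each cell cannot be told apart.

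All 7 promoters had a peak in all 4 lists, as did 60.6% of the 21000 protein-coding genes with a curated start site. Pknox1 ranked first of the 7 in every list, level with Pbx3 in P0.5 epithelium, and Meis3 last in every list. The promoter of Pknox1, on chromosome 17, held the strongest peaks of the set. Its peak ranked at 0.463% of the list in embryonic epithelium, 0.242% in embryonic fibers, 4.88% in newborn epithelium and 0.446% in newborn fibers, and 1.26 to 14.1% of all genes had a better one.

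Pbx3 ranked at 2.96%, 0.818%, 4.88% and 0.779% in the same order, so it was second or level with Pknox1 in every list but E14.5 epithelium, where Meis1 stood between them. Meis1 ranked at 2.76%, 2.03%, 8.34% and 7.65%, Meis2 at 6.04%, 2.16%, 9.96% and 12.6%, and Pknox2 at 3.39%, 5.14%, 6.40% and 7.65%. Ties are common in the P0.5 lists, and Pknox1 and Pbx3 shared a rank in P0.5 epithelium, as did Meis1 and Pknox2 in P0.5 fibers.

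Pbx2 lay lower, at 9.30%, 12.7%, 27.9% and 9.32%, in a region that also lies within the promoter of Gpsm3. Meis3 had the weakest promoter of the set in every list, at 23.3%, 34.2%, 31.6% and 48.9%, and in P0.5 fibers its rank came from a separate small peak rather than from the region called in the other 3 lists. The median rank over all genes with a promoter peak was 7.68%, 6.10%, 12.8% and 10.3%. Pknox1, Pbx3, Meis1 and Pknox2 therefore ranked better than the median gene in all 4 lists, and Meis3 worse in all 4.

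**Figure D1:**
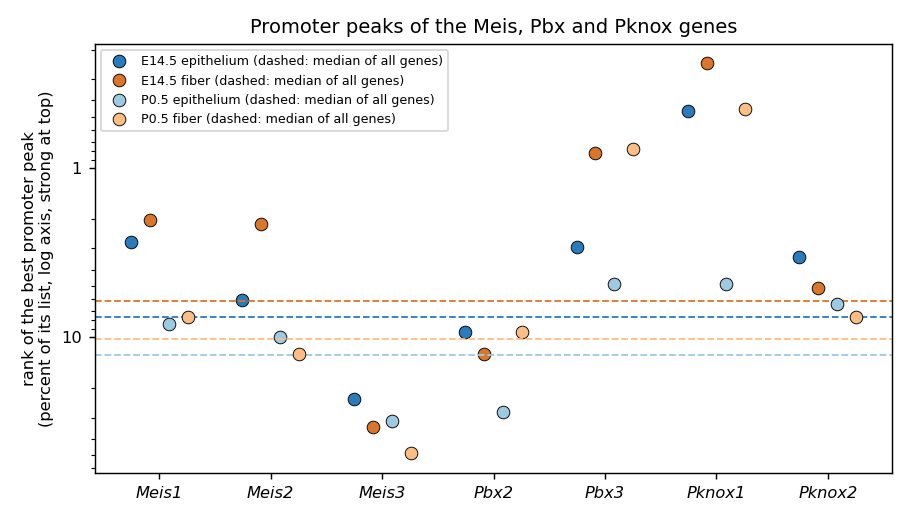
Rank of the strongest promoter peak of each of the 7 genes in the 4 lists, as percent of the list on an inverted log axis, with the median over all genes as a short line for each list. Pknox1 (0.242 to 4.88%) sits at the top, level with Pbx3 in P0.5 epithelium, and Meis3 (23.3 to 48.9%) at the bottom.

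Set beside the genome, the 7 loci together were close to the usual balance of the tissues at E14.5. Of 317 regions, 71 were called in epithelium and not in fibers (22.4%, Wilson 95% interval 18.2 to 27.3%), and 19.7% of all regions in the genome were. These intervals cover counting error only. The 111 called in fibers and not in epithelium made 35.0% (30.0 to 40.4%), beside 40.1% in the genome. At P0.5, 68 of 162 regions were called in epithelium and not in fibers (42.0%, interval 34.6 to 49.7%), beside 35.2% in the genome. Regions called in fibers and not in epithelium numbered 59 (36.4%, 29.4 to 44.1%), beside 39.7% in the genome. In the gene bodies alone, without the 50 kb on each side, the P0.5 shares were 56.1% in epithelium alone (35.2% in the genome) and 24.4% in fibers alone (39.7%).

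Between the stages, the loci had fewer regions after birth, as had the genome. In epithelium, 117 of 220 regions were called at E14.5 and not at P0.5 (53.2%, interval 46.6 to 59.7%), beside 49.7% in the genome. The opposite, regions of P0.5 alone, numbered 14 (6.36%, 3.83 to 10.4%), beside 11.2%. In fibers, 199 of 293 regions were of E14.5 alone (67.9%, 62.4 to 73.0%), beside 62.6%, and 47 of P0.5 alone (16.04%, 12.3 to 20.7%), beside 17.6%. With the lists cut to equal length, regions of E14.5 alone made 29.0% in epithelium (27.0% in the genome) and 47.1% in fibers (40.5%), and those of P0.5 alone 19.3% (22.4%) and 30.8% (33.0%). The gap between the stages was thus narrower in both tissues. In the gene bodies alone, with the full lists, fiber regions of E14.5 alone made 78.3% (62.6% in the genome) and those of P0.5 alone 7.83% (17.6%). Regions in all 4 lists numbered 31 of 369 (8.40%), beside 10.9% in the genome.

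Meis1 encodes a Meis factor of early eye and blood progenitors. It lies on the minus strand of chromosome 11, from 18880428 to 19019651. Its window held 40 peaks in embryonic epithelium, 45 in embryonic fibers, 25 in newborn epithelium and 14 in newborn fibers, in 49 regions. At E14.5 both tissues called 30 of the 48 regions, beside 61347 of 152627 in the genome. Epithelium alone had 3 (6.25%, interval 2.15 to 16.8%, beside 19.7% in the genome) and fibers alone 15 (31.2%, 19.9 to 45.3%, beside 40.1%).

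At P0.5 more regions were called in epithelium alone. Of 21 regions, 6 were called in both tissues. Epithelium alone had 12 (57.1%, interval 36.5 to 75.5%, beside 35.2% in the genome) and fibers alone 3 (14.3%, 4.98 to 34.6%, beside 39.7%). The 12 epithelial regions had all been called in both tissues at E14.5, and each of them lay in the body of the gene, 11 with their summit in an intron. The strongest of the 12 in embryonic epithelium lay 68.9 kb into the gene and ranked at 10.4% in embryonic epithelium, 15.3% in embryonic fibers and 33.9% in newborn epithelium.

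No region at Meis1 was called in P0.5 epithelium but not in E14.5 epithelium (0 of 33, interval up to 10.4%, beside 11.2% in the genome). The region 8.47 kb upstream printed first above was among the 6 regions in all 4 lists and ranked at 14.2%, 10.4%, 9.10% and 12.6%. It is the strongest region outside promoters at Meis1 by p value, and 71% of its 200 bases are G or C.

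Meis2, the Meis gene with the longest body here, lies on the minus strand of chromosome 2 from 115861264 to 116067537 and has 3 curated start sites. Its 55 regions came from 39 peaks in embryonic epithelium, 48 in embryonic fibers, 22 in newborn epithelium and 10 in newborn fibers. At E14.5, 24 of 54 regions were called in fibers alone (44.4%, interval 32.0 to 57.6%, beside 40.1% in the genome) and 6 in epithelium alone (11.1%, beside 19.7%). At P0.5, 10 of 18 were called in epithelium alone (55.6%, 33.7 to 75.4%, beside 35.2%) and 2 in fibers alone, so both intervals include the genome share. No region was called in P0.5 epithelium without E14.5 epithelium here either (0 of 30, interval up to 11.4%, which includes the 11.2% of the genome).

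The intron region 44.5 kb into Meis2 was called in all 4 lists, over 2722 bp in all, and ranked at 14.49% in embryonic epithelium, 4.56% in embryonic fibers, 26.3% in newborn epithelium and 48.9% in newborn fibers. Ranks in lists of different length and strength are given side by side and were not compared between stages. A pair of regions beyond the end of the gene, with summits 209 kb and 212 kb from the nearest start site, were in all 4 lists as well. The Meis2 region limited to 1 stage with the smallest p value lay in an intron 108 kb into the gene, at E14.5 only, at 23.3% in epithelium and 18.0% in fibers. Of the pair beyond the gene, the farther one had ranks of 38.1% and 52.3% in epithelium and 11.5% and 12.6% in fibers, and the nearer one 14.2% and 24.9% in epithelium and the same 11.5% and 12.6% in fibers.

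Meis3 encodes the third Meis factor and is 12.5 kb long, on the plus strand of chromosome 7 from 16174012 to 16186510, among C5ar2, Dhx34, Kptn and Slc8a2. Its window had 15, 13, 10 and 22 peaks in embryonic epithelium, embryonic fibers, newborn epithelium and newborn fibers. Of its 32 regions 19 were called at E14.5, with 8 in both tissues. Epithelium alone had 6 (31.6%, interval 15.4 to 54.0%, beside 19.7% in the genome) and fibers alone 5 (26.3%, 11.8 to 48.8%, beside 40.1%). At P0.5, 16 of 26 were called in fibers alone (61.5%, interval 42.5 to 77.6%, beside 39.7% in the genome) and 5 in epithelium alone, and 8 of those 16 had a q value under 0.001 (50%, beside 28.7% of such regions in the genome). Only 3 of the 32 regions lay at the promoter of Meis3 or in its body. The highest-ranked peak of the window in each list was at the promoter of Dhx34, at 7.05%, 5.42%, 9.54% and 6.31%. Of the regions limited to 1 tissue or stage, the one with the smallest p value lay in the body of Slc8a2, in both fiber lists, at 28.4% and 26.4%.

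Pbx2 encodes a widely expressed Pbx factor. It lies in a crowded stretch of chromosome 17, from 34592259 to 34597400 on the plus strand, with 10 other genes in its window, Notch4 and Ager among them. It had 30, 25, 21 and 30 peaks in the same order. Of its 46 regions 33 were called at E14.5, with 17 in both tissues. Epithelium alone had 9 (27.3%, interval 15.1 to 44.2%, beside 19.7% in the genome) and fibers alone 7 (21.2%, 10.7 to 37.8%, beside 40.1%). At P0.5, 15 of 29 were called in fibers alone (51.7%, interval 34.4 to 68.6%, which includes the 39.7% of the genome) and 7 in epithelium alone, but with peaks of q under 0.001 only, the shares of the tissues were equal. The highest-ranked peaks of the window were at the promoters of Rnf5 and Agpat1 at E14.5 (1.54% in epithelium and 0.566% in fibers) and of Fkbpl and Atf6b at P0.5 (6.14% and 1.87%). Of the regions limited to 1 tissue or stage, the one with the smallest p value lay in the body of Ppt2, at E14.5 only, at 33.9% and 25.2%.

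Pbx3 encodes a Pbx factor known from the developing nervous system. It lies on the minus strand of chromosome 2 from 34171457 to 34372045. It had 13 peaks in embryonic epithelium, 38 in embryonic fibers, 5 in newborn epithelium and 8 in newborn fibers. Of the 41 regions of E14.5, 28 were called in fibers alone (68.3%, interval 53.0 to 80.4%, beside 40.1% in the genome), 3 in epithelium alone (7.32%, beside 19.7%) and 10 in both. Of the 28 fiber regions, 17 had a q value under 0.001 (60.7%, beside 66.7% of such regions in the genome).

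The open stretches of the Pbx3 body were almost limited to E14.5. In the body outside the promoter, 21 regions were called in E14.5 fibers alone, 1 in E14.5 epithelium alone and 7 in both, but at P0.5 1 region was called in epithelium and 0 in fibers. The remaining P0.5 fiber regions of the window were the promoters of Pbx3 and Mapkap1, called in all 4 lists, and 6 regions between genes. The P0.5 lists are shorter, and in the genome 75.9% of E14.5 fiber regions were absent from P0.5 fibers. Regions called at E14.5 only made 53.6% of all regions in the genome. In the whole Pbx3 window, P0.5 fibers lacked 36 of 38 E14.5 fiber regions (94.7%, interval 82.7 to 98.5%). The counts in the Pbx3 body alone were not set against a genome share. The intron region 63.8 kb into the gene was the strongest of those in the body, with ranks of 18.3% (E14.5 epithelium) and 7.48% (E14.5 fibers), and no peak was called there at P0.5. The fiber region 11.8 kb into the gene ranked at 16.6%.

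Pknox1 encodes a broadly expressed partner of the Pbx factors. It lies on the plus strand of chromosome 17 from 31564722 to 31607693, between Cbs, U2af1 and Ndufv3. It had 16, 32, 8 and 13 peaks in embryonic epithelium, embryonic fibers, newborn epithelium and newborn fibers. At E14.5, 22 of 38 regions were called in fibers alone (57.9%, interval 42.2 to 72.1%, beside 40.1% in the genome) and 6 in epithelium alone (15.8%, beside 19.7%). Of these 22, 19 had a q value under 0.001 (86.4%, beside 66.7%). In all 4 lists were 4 of the 45 regions (8.89%, beside 10.9% in the genome), among them the promoter of Pknox1 and regions at the promoters of other genes.

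None of the E14.5 epithelial peaks at Pknox1 outside promoters was in the best 25% of its list. The strongest region in the body was the one printed above, 35.7 kb downstream, in E14.5 fibers alone at 19.5% of the list. At P0.5, 7 of 14 regions were called in fibers alone (50%, interval 26.8 to 73.2%, which includes the 39.7% of the genome) and 3 in epithelium alone, and at q under 0.001 the shares of the tissues were equal.

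Pknox2 encodes the relative of Pknox1. It has the longest body of the set, on the minus strand of chromosome 9 from 36890979 to 37147342, and its window was the only one of the 7 with more regions in epithelium alone than in fibers alone at both stages. It had 77 peaks in embryonic epithelium, 48 in embryonic fibers, 36 in newborn epithelium and 17 in newborn fibers. At E14.5, 38 of 84 regions were called in epithelium alone (45.2%, interval 35.0 to 55.9%, beside 19.7% in the genome), 10 in fibers alone (11.9%, beside 40.1%) and 36 in both. At P0.5, 29 of 44 were called in epithelium alone (65.9%, beside 35.2% in the genome) and 10 in fibers alone (22.7%, beside 39.7%).

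Of the 38 epithelial regions of E14.5, 32 lay in the gene body outside the promoter, as did 81 of all 96 regions of the locus, and 29 had a q value under 0.001 (76.3%, beside 74.1% of such regions in the genome). The strongest of the regions called in E14.5 epithelium and no other list, 181 kb into the gene, ranked at 20.9%. The region 231 kb into the gene, in all 4 lists, ranked at 13.5%, 10.4%, 18.8% and 26.4%. The E14.5 region 228 kb into the gene ranked at 20.2% in epithelium and 14.6% in fibers.

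**Figure D2:**
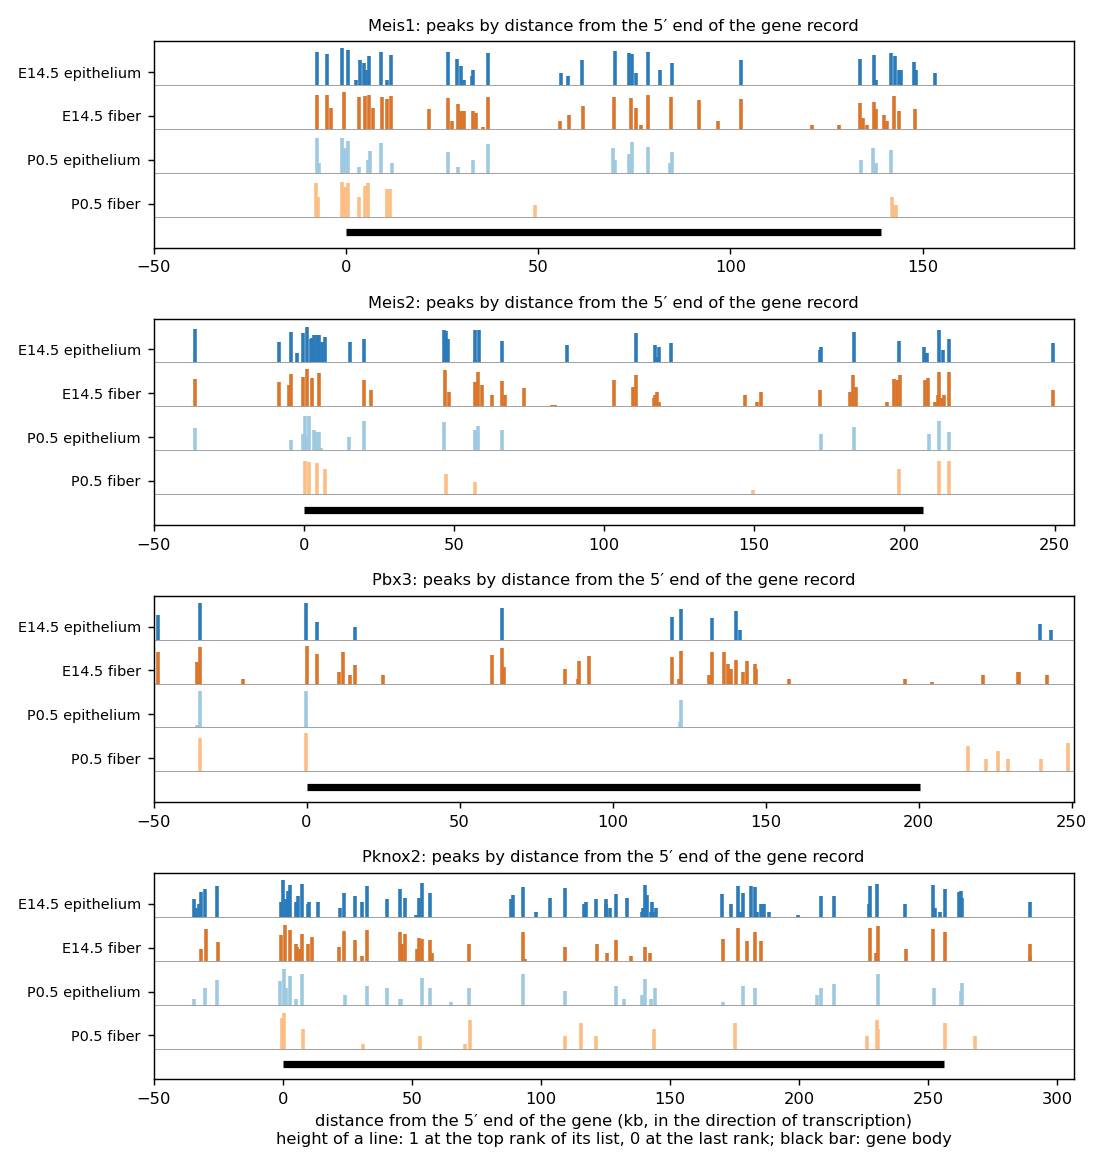
Peaks of the 4 lists along the windows of Meis1, Meis2, Pbx3 and Pknox2, drawn by distance in kb from the first start site along the gene, with the gene body marked. The Pbx3 body holds many bars in E14.5 fibers and almost none at P0.5, and the Pknox2 body holds the most bars in E14.5 epithelium.

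The summed shares cover loci that lean in opposite directions. At E14.5 the interval for regions in fibers alone at Pbx3 and Pknox1 lay above the genome share of 40.1%, and at Pknox2 (11.9%, 6.60 to 20.5%) and Pbx2 (21.2%, 10.7 to 37.8%) below it.

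At P0.5, regions in epithelium alone made 57.1% at Meis1 (36.5 to 75.5%), 55.6% at Meis2 (33.7 to 75.4%) and 65.9% at Pknox2 (51.1 to 78.1%), and 19.2 to 24.1% at the other 4 genes. The intervals of Meis1 and Pknox2 lie above the genome share of 35.2%, and that of Meis2 includes it. With peaks of q under 0.001 only, regions in epithelium alone made 56.5% at the loci and 51.1% in the genome, and regions in fibers alone 21.3% and 18.4%.

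The sign of the difference between the tissues at E14.5 stayed the same under every alternative tried for Pbx3, Pknox1, Meis1, Meis2 and Pknox2, but the genome itself has more regions in fibers alone (40.1%) than in epithelium alone (19.7%), and the intervals for fibers alone at Meis1 (31.2%, 19.9 to 45.3%) and Meis2 (44.4%, 32.0 to 57.6%) include the genome share. The share in epithelium alone minus the share in fibers alone was between 32.4 and 43.6 percentage points at Pknox2, between −67.7 and −40 at Pbx3 and between −46.9 and −29.4 at Pknox1. At Meis1 it was between −28.9 and −11.1 and at Meis2 between −39.5 and −8, smallest with lists cut to equal length. The excess of epithelium at P0.5 held throughout at Meis1 (42.9 to 55.6), Meis2 (33.3 to 64.7) and Pknox2 (39.0 to 70), but the highest values come from q under 0.001, where the genome has the same direction. The excess of fibers at P0.5 at Meis3, Pbx2, Pbx3 and Pknox1 was lost or turned under at least 1 alternative.

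**Figure D3:**
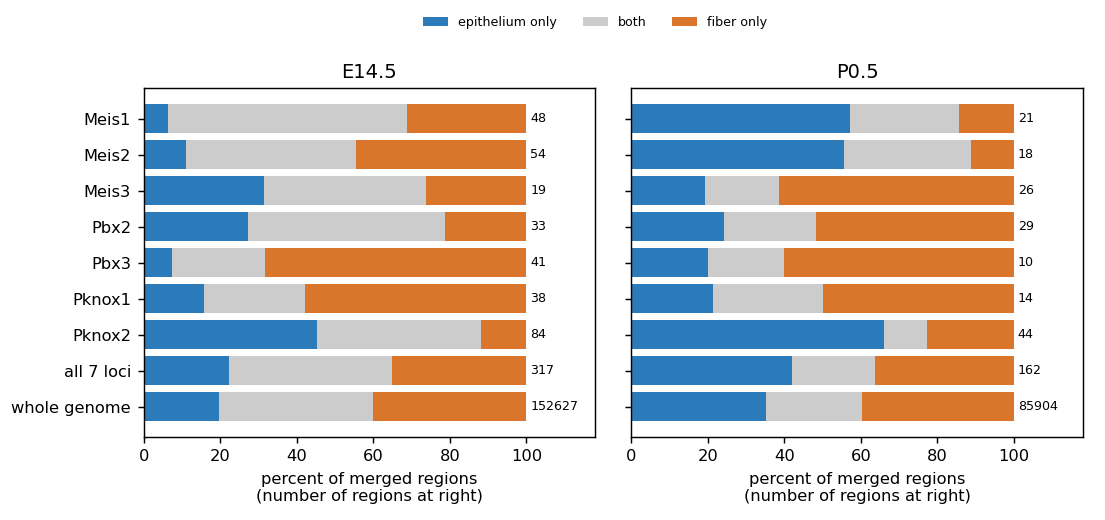
Share of the regions of each locus called in epithelium alone, in both tissues and in fibers alone, at E14.5 and at P0.5, with the whole genome beside them. The E14.5 bars of Pbx3 (68.3%) and Pknox1 (57.9%) are mostly fiber, that of Pknox2 is mostly epithelium or shared, and epithelium alone is the largest share of Meis1 (57.1%) and Meis2 (55.6%) at P0.5.

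The share of E14.5 fiber regions that P0.5 fibers lacked differed among the genes. Of the regions of the E14.5 fiber list, P0.5 fibers lacked 36 of 38 at Pbx3 (94.7%, interval 82.7 to 98.5%) and 5 of 13 at Meis3 (38.5%, 17.7 to 64.5%), beside 75.9% in the genome, so the first interval lies above the genome share and the second below it. The shares of Meis1 (82.2%), Meis2 (85.4%), Pknox1 (84.4%), Pknox2 (82.6%) and Pbx2 (15 of 24, 62.5%) have intervals that include it, as has that of the 7 loci (199 of 246, 80.9%, 75.5 to 85.3%). Over both tissues, regions called at E14.5 only made 78.3% of the regions of Pbx3 and 18.8% of those of Meis3, beside 53.6% in the genome. With lists of equal length the share of E14.5 alone minus that of P0.5 alone in fibers was 61.5 percentage points at Meis1, 68.2 at Meis2 and 33.3 at Pbx3, but −32.1 at Pbx2 and −58.3 at Meis3. Over the genome, such lists gave 40.5% for E14.5 alone and 33.0% for P0.5 alone in fibers.

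Strong peaks, far from the calling threshold, were followed from E14.5 to P0.5 as well. Of the E14.5 epithelial peaks in the best 25% of their list and outside promoters, 33 of 39 at the loci were called again in P0.5 epithelium (84.6%, interval 70.3 to 92.8%), beside 86.0% in the genome. In fibers it was 12 of 45 (26.7%, 15.96 to 41.0%), beside 38.2% in the genome, which the interval includes.

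Meis1 kept 13 of 14 such peaks in epithelium and 6 of 16 in fibers, and Meis2 kept 8 of 9 and 4 of 8. Pknox2 kept 11 of 14 and 1 of 9, and Pbx3 kept 1 of 2 and 0 of 7. In fibers Meis3 kept 1 of 1 and Pbx2 and Pknox1 each 0 of 2, and these 3 genes had no such peak in epithelium. Of the strong peaks at promoters, 21 of 21 were called again in epithelium (98.8% in the genome) and 17 of 21 in fibers (81.0%, interval 60.0 to 92.3%), an interval that includes the 88.7% of the genome.

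The share of a gene body covered by peaks counts a wide peak for more than a narrow one. In embryonic epithelium, embryonic fibers, newborn epithelium and newborn fibers, peaks covered 9.37%, 14.6%, 3.104% and 1.14% of Meis1, and 5.32%, 9.44%, 2.34% and 0.802% of Meis2. The medians over the 20212 protein-coding genes that span 1 kb or more were 2.62%, 4.08%, 1.46% and 1.32%, so both genes were above the median in 3 lists and below it in P0.5 fibers. The same held for Meis3, with 7.55%, 7.57%, 5.46% and 0.936%, and for Pknox2.

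Pbx3 was below the median in every list but E14.5 fibers, with 1.43%, 5.34%, 0.595% and 0.487%. Pbx2, whose body is 5.14 kb, was covered over 26.0%, 41.4%, 8.32% and 27.1%, above 87.8 to 97.2% of genes. Pknox1 had 3.87%, 13.0%, 2.96% and 3.62%, highest in fibers at each stage, and Pknox2 had 8.04%, 6.53%, 2.52% and 1.26%, highest in epithelium at each stage.

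**Figure D4:**
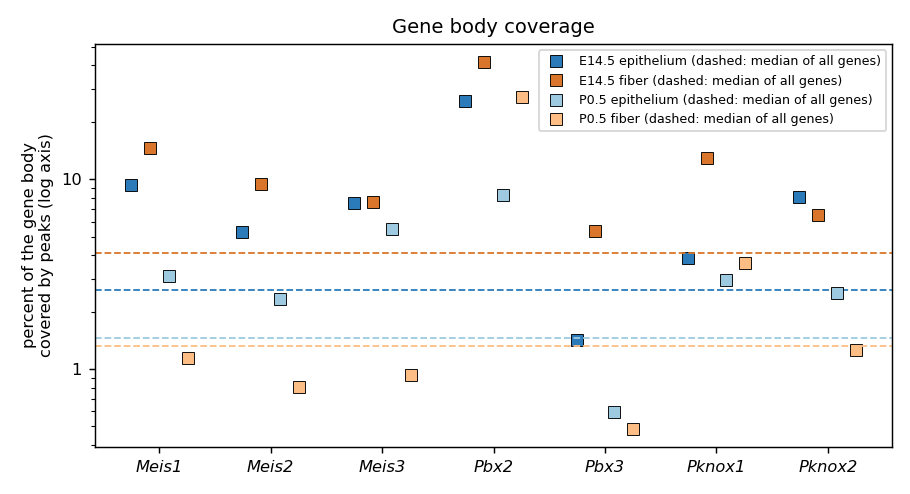
Percent of the gene body covered by peaks (log axis) for the 7 genes in the 4 lists, with the median over all genes of at least 1 kb as a short line for each list. Meis1, Meis2, Meis3 and Pknox2 lie below the P0.5 fiber median (1.32%) and above the median of each other list, and Pbx2 is covered most in every list.

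The genes whose coverage in the 4 lists lay nearest to a member were found by the Euclidean distance of log10(percent + 0.1) over the 4 lists. Nearest to Meis1 were App, Lhfpl2 and Edaradd (distances 0.0595 to 0.135), and nearest to Meis2 were Foxp1, Polr2d and Adar (0.0709 to 0.124). Cetn2, Thrsp and Disp2 lay nearest to Meis3 (0.0732 to 0.0935), Rnf225, Ndufs7 and Git1 to Pbx2 (0.0702 to 0.0920) and Tnks, Sntb1 and Gm21976 to Pbx3 (0.113 to 0.125). Coq10b, Max and Fnta lay nearest to Pknox1 (0.0225 to 0.0578), and Tafa3, Stra6 and Mdfi to Pknox2 (0.0535 to 0.0964). App, for example, was covered over 9.30%, 14.1%, 3.51% and 1.21%.

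Short motifs were searched on both strands in 200 bp around the summit of each region. TGACAG (Meis and Pknox) was found in 74 of 369 regions (20.1%, interval 16.3 to 24.4%), beside 19.2% of all regions in the genome, and ranged from 8.16% at Meis1 to 26.7% at Pknox1. Of the regions printed above, the Meis2 intron region and the Pknox2 E14.5 region each held 1 match. TGATTGAC, the joint site of Pbx with Meis or Pknox, whose last 4 letters can overlap the start of TGACAG, was found in 2 regions (0.542%), beside 0.526% in the genome.

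One of the 2 is the promoter of Meis2 itself, in the region called in all 4 lists, where the site lies near the summit and in an exon. The other is a weak region 65.3 kb into Pknox2 that was called in P0.5 epithelium alone, at 96.5% of the list. Both are shown as 30 bases of the plus strand around the site, with capitals for GTCAATCA, the site read on the minus strand. TGATTGAT (Pbx with Hox), which shares its first 7 letters with the site of Pbx with Meis or Pknox, was found in 1 region, at Pknox1, beside 0.445% in the genome.
Meis2 promoter site, chr2:116067144-116067173: cgcggctgcgcGTCAATCAccgagagacga
Pknox2 intron site, chr9:37082077-37082106: agccgagacccGTCAATCActcactcaggc

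Of the motifs of other lens factors, AACAAT (Sox) was found in 42 regions (11.4%, interval 8.53 to 15.0%), beside 7.04% in the genome. In windows of 100 bp and 400 bp the intervals included the genome share (4.34%, 2.69 to 6.93%, beside 3.54%, and 15.4%, 12.1 to 19.5%, beside 14.0%), so a difference beyond counting error was seen in 200 bp alone. By locus it was in 13 of 55 regions at Meis2 (23.6%, 14.4 to 36.3%), 16.3% at Meis1 and 15.2% at Pbx3, but in 2.22% at Pknox1 and 4.35% at Pbx2. The median G and C content of the windows was 48.5% at Meis1 and Meis2 and 46.8% at Pbx3, and 53% at Pknox1 and 58.5% at Pbx2. The motif is rich in A and T, and the part of base content in these shares was not tested.

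TGCTGA (Maf) was found in 85 regions (23.0%), beside 23.1% in the genome. GGAATG (Tead) was found in 47 (12.7%, 9.72 to 16.5%), beside 13.7%. It was in 14 of 76 regions called only in epithelium (18.4%) and in 13 of 149 called only in fibers (8.72%), and the same shares over the genome were 18.3% and 11.3%.

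The other TALE genes and a Pbx partner, by a list of 9 genes, also had open promoters. Tgif1, Tgif2, Irx1, Irx2, Irx3, Irx5 and Irx6 had a promoter peak in all 4 lists, whereas Irx4 had none in P0.5 epithelium and Pbxip1, which encodes a protein that binds Pbx, none in P0.5 fibers. Irx5 had the strongest promoters of that list, at 2.24%, 1.33%, 4.65% and 1.87%. The median rank of those with a promoter peak (9, 9, 8 and 8 genes) was 13.0%, 11.7%, 18.2% and 12.7%, and that of the 7 Meis, Pbx and Pknox genes 3.39%, 2.16%, 8.34% and 7.65%. Promoters of 5 lens genes tied to Meis and Pknox factors, Pax6, Foxe3, Sox2, Six3 and Prox1, had a peak in all 4 lists.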

How the data were processed

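The 8 ATAC-seq libraries came from lens epithelium and fibers at E14.5 and P0.5. The submitters' processing notes name Trim Galore 0.4.1, Bowtie2 2.3.3.1, SAMtools 1.2, Picard 2.1.1, MACS2 2.1 and the mm10 build. Peaks were called by the authors once per group, after pooling its 2 libraries, with a q threshold of 0.05. The deposited fold enrichment of a peak is a ratio of pooled reads to the local background, and the authors' −log10 p and −log10 q values belong to the same summit. The authors' score is a whole number that was not used here.

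The stage and tissue of a list gave its group, with 0 columns left without one. Python 3.11.15 with numpy 2.4.6 and pandas 2.3.3 read the 4 lists. Peaks on scaffolds (57 to 90 per list) were left out of windows, and no peak ended beyond the GRCm38 length of its chromosome. Peaks were merged at 10 bp with bedtools 2.31.1, and promoters were 2 kb around start sites of 45756 curated RefSeq transcripts. Wilson 95% intervals came from scipy 1.17.1, sequences from pysam 0.24.0 and samtools 1.23.1, figures from matplotlib 3.10.9. The scripts were tested on simulated peaks.

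The values of all 7 members are given in every list, with the 3 genes nearest in coverage, the promoter ranks of 2 lists of related genes, the highest-ranked peak of each window and the region of 1 tissue or stage with the smallest p value. Some items, a region and marker genes among them, are not reported here. The members and lists were chosen with earlier results of these data known. Alternatives were q under 0.001, lists of equal length, other windows, merge distances, overlaps, promoter widths, transcripts and rankings, coverage without the first 2 kb, and motif windows of 100 and 400 bp.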

Additional observations from a re-analysis of the deposited data

How the results depend on the processing

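No paired analysis was possible because the peaks were called on pooled libraries, and for the same reason no library could be left out. Of the values that summarise all 7 loci, 66 moved little and 42 moved, and of the other values, mostly of single genes or loci, 293 moved little, 48 moved and 7 turned. With q under 0.001 the loci held 55 peaks in P0.5 fibers. The regions of E14.5 fibers but not epithelium then made 29.6% (34.8% in the genome). Those of P0.5 epithelium but not fibers made 56.5% (51.1%) and the opposite 21.3% (18.4%). In fibers, regions of E14.5 but not P0.5 made 77.6% (74.3%) and the opposite 5.71% (6.68%). The median coverage of the members in P0.5 fibers was then 0.611%. With lists of equal length there were 129 peaks in embryonic epithelium and 119 in embryonic fibers. The share of E14.5 fibers but not epithelium was then 22.5% (24.8% in the genome). In epithelium, E14.5 but not P0.5 made 29.0% (27.0%) and the opposite 19.3% (22.4%). In fibers, E14.5 but not P0.5 made 47.1% (40.5%) and the opposite 30.8% (33.0%). As a share of the E14.5 fiber regions, chosen after seeing the data, those absent from P0.5 fibers made 80.9% (75.9% in the genome). The gene bodies alone held 141, 155, 77 and 44 peaks, with 56.1% of P0.5 regions in epithelium but not fibers (35.2% in the genome) and 24.4% the opposite (39.7%), and 78.3% of fiber regions of E14.5 but not P0.5 (62.6%) and 7.83% the opposite (17.6%).

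When both peaks had to overlap by 50%, fiber peaks matched 35.7% of epithelial peaks at E14.5 and 18.9% at P0.5, and epithelial peaks matched 32.9% and 21.1% of fiber peaks. In epithelium 22.6% of E14.5 peaks had a match at P0.5 and 40.9% the other way, and in fibers 3.21% and 7.02%. The 50% overlap was computed for peaks at the loci alone, so there is no genome share to set beside these values. Without the first 2 kb of the gene the median coverage was 1.80% in embryonic epithelium and 1.23% in newborn epithelium. In 100 and 400 bp, TGACAG was in 10.6% and 34.1% of regions, GGAATG in 6.78% and 24.7%, TGCTGA in 11.9% and 35.2% and AACAAT in 4.34% and 15.4% (3.54% and 14.0% in the genome, within the counting interval in both), and TGATTGAT in 0% in 100 bp.

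The values that turned are differences of shares in percentage points, all at Meis3, Pbx2 or Pbx3. With equal lists, E14.5 minus P0.5 became −25 in epithelium at Meis3 and −32.1 in fibers at Pbx2. With 20 kb on each side, epithelium minus fibers at E14.5 became −16.7 at Meis3 and E14.5 minus P0.5 in fibers −11.5 at Pbx2. In the gene body alone, epithelium minus fibers became 33.3 at Meis3 and 50 at Pbx3 at P0.5 and −60 at Pbx2 at E14.5. The values in the gene body rest on few regions. Meis3 had 1 in its body and 2 at its promoter over all lists, and Pbx2 had 3 and 4. At P0.5 the Pbx3 body had 1, in epithelium alone, and its promoter 1, in both tissues. The cause of the turns was not tested. The lists hold no read counts, so depth sets a limit on absent peaks that cannot be given.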
